A study of Mus musculus with 19 samples.

Results

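The genes described are 31 genes of cholesterol synthesis and of its control by SREBP2, out of 51826 gene entries measured in mouse liver. They were chosen by name, from the pathway, but with earlier results of these data known, and each of the 31 was found on a single row. The shares over all genes given below therefore describe the set and are no independent test of it. The set holds 20 genes of the route from acetyl-CoA to cholesterol (19 enzymes and 0610007P14Rik, a protein that is thought to hold some of them together), 3 genes of the isoprenoid branches, 4 genes for SREBP2 and its control proteins, and 4 other sterol-responsive genes. RNA was measured in flash-frozen liver from 19 female Balb/c mice, all given as 12 weeks old, with 1 library per mouse. The stages were nulliparous (NUL, n = 7), lactation day 10 (LAC, n = 6) and involution day 6 (ID6, n = 6), the last falling after weaning, while the liver regresses from its lactating state. The mice came from a pair of suppliers that the sources used here do not tie to single animals. The comparisons ask how far hepatic RNA for these genes differs between the virgin, lactating and weaned states.

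Cholesterol is built in the liver from acetyl-CoA through mevalonate, the isoprenoid farnesyl diphosphate, squalene and lanosterol. When sterols are scarce in the endoplasmic reticulum, the escort protein SCAP carries the transcription factor SREBP2 to the Golgi, where proteases release its active part, which turns on most enzymes of the route. When sterols are plentiful, the INSIG proteins hold SCAP and SREBP2 back. The lactating liver is known for high lipid output, since milk draws heavily on maternal lipid and cholesterol.

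Values are in TPM, a share of the library's transcripts that corrects for gene length and for the library total, so levels may be compared between genes. Between mice they are compared as shares, so a rise of abundant genes lowers the others. A gene is said to have risen or fallen where its adjusted p was under 0.05 in limma-trend, fitted over 16230 genes, and differences are on the log2(TPM + 1) scale, which understates the change of genes near 1 TPM. A 2-fold call also needs a log2 difference of at least 1 in size. Folds are ratios of mean TPM. Every one of the 31 was above the floor for testing, a mean of 0.1 TPM. The 3 comparisons share mice, so they are not independent of each other. In bulk tissue, fewer cells of a type and less RNA per cell cannot be told apart.

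The mice differed in ways other than stage. Their animal numbers fall below 200 in 3 NUL and 3 LAC mice and at 200 or above in 4 NUL, 3 LAC and 6 ID6 mice, a split that no label calls a batch but that is followed below. Between 11209 and 11797 genes reached 1 TPM per mouse. The defining markers of hepatocytes were abundant in every mouse, with 8 markers summing to between 59590 and 94773 TPM in NUL, 99615 and 151491 TPM in LAC and 80523 and 111712 TPM in ID6 mice. Most of that sum was Alb, the albumin gene, at means of 55208, 100197 and 62534 TPM for NUL, LAC and ID6.

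The 20 genes of the route summed to between 1113 and 1842 TPM in NUL mice (median 1521), between 1848 and 2708 TPM in LAC mice (median 2510), and between 765 and 1148 TPM in ID6 mice (median 925). Every LAC mouse was above every NUL mouse, although the lowest LAC and highest NUL sums nearly met, and the ID6 range met the NUL range only at its upper end. Means were 1476 ± 236 (SD, n = 7), 2414 ± 330 (n = 6) and 924 ± 137 TPM (n = 6). Among mice numbered 200 and above, the NUL range was 1320 to 1842 and the LAC range 2243 to 2666 TPM, so the order of the stages was the same there. Single mice tended to stand at one end for many of these genes at once. NUL_4 was the lowest NUL mouse for 14 of the 20 genes and NUL_227 the highest for 14, while LAC_133 was the lowest LAC mouse for 16 and ID6_230 the highest ID6 mouse for 14.

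**Figure D1:**
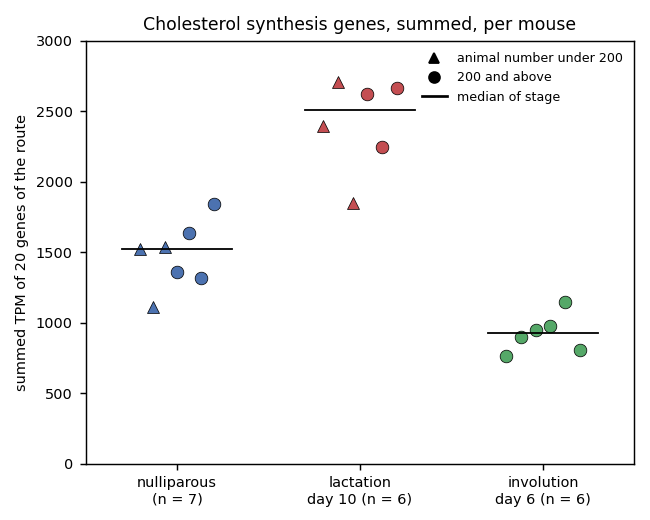
Summed TPM of the 20 genes of the cholesterol route in each mouse (y axis, from 0) by stage (x axis), with triangles for animal numbers under 200, circles for 200 and above, and a bar at the stage median. The LAC mice sit between 1848 and 2708 TPM, above all NUL mice, and the ID6 mice between 765 and 1148 TPM.

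Most of the 31 genes were higher in lactation and lower in involution. In LAC against NUL mice, 20 genes rose and 1, Mylip, fell, while 2.72% of all genes tested rose and 6.49% fell. The median log2 difference was 0.60 over the 31 genes and -0.03 over all genes tested. The 2-fold rule left 7 genes higher (Mvd, Fdps, Sqle, Lss, Cyp51, Dhcr7 and Rdh11), against 0.431% of all genes. This count rests partly on 1 mouse. Without NUL_4 it was 4, with Fdps, Cyp51 and Dhcr7 passing the test at log2 differences of 0.98, 0.89 and 0.93. For 10 of the 31 genes every LAC mouse was above every NUL mouse, as was so for 0.98% of all genes.

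From LAC to ID6, 24 genes fell and 1, Mylip, rose, while 4.73% of all genes fell and 18.1% rose. The median log2 difference was -1.15 over the set and 0.10 over all genes. By the 2-fold rule 17 genes fell, against 0.906% of all genes. In 21 genes every ID6 mouse was below every LAC mouse (2.16% of all genes), and Mylip was the 1 gene that stood wholly above (9.3% of all genes).

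The fall went below the nulliparous level for part of the set. In ID6 against NUL mice, 13 genes fell and 0 rose in limma-trend, with 0.912% of all genes falling and 3.44% rising. At an unadjusted p under 0.05, 2 were higher, Nus1 and Mylip. The median log2 difference was -0.62 over the set and 0.07 over all genes. With 1 mouse left out, the set median ran from -0.67 (without NUL_4) to -0.41 (without ID6_209). Hmgcs1, Idi1, Sqle, Cyp51, Msmo1 and Nsdhl, 6 genes in all, fell by the 2-fold rule (0.173% of all genes), and 12 genes lay below the NUL range in every ID6 mouse (0.542% of all genes).

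The shares over all genes depended on the scaling. Median-ratio scaling takes as level the middle of the genes with at least 1 TPM in every mouse. After it, 23 of the 31 genes rose and 1 fell in LAC against NUL, with 4.06% of all genes rising and 5.17% falling. In ID6 against LAC mice 27 fell and 1 rose, with 7.55% of all genes falling and 8.82% rising, where TPM alone gave 4.73% and 18.1%. In ID6 against NUL mice 14 fell, with 1.35% of all genes falling and 1.07% rising, where TPM alone gave 0.912% and 3.44%.

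Set side by side over the 3 comparisons, 10 genes rose in lactation, fell after it and were below NUL at ID6. Another 10 rose and fell in the same way but did not pass the test between ID6 and NUL. Mvk, Hsd17b7 and 0610007P14Rik, 3 genes, fell in both ID6 comparisons without passing in LAC against NUL. Srebf2 passed only in ID6 against LAC. Lbr, Ebp, Ggps1, Dhdds, Nus1 and Insig2, 6 genes, passed in none, which does not show that they were level. The share of all genes with each pattern was not counted. A high LAC value enters both the rise and the fall, so those calls are not independent of each other.

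**Figure D2:**
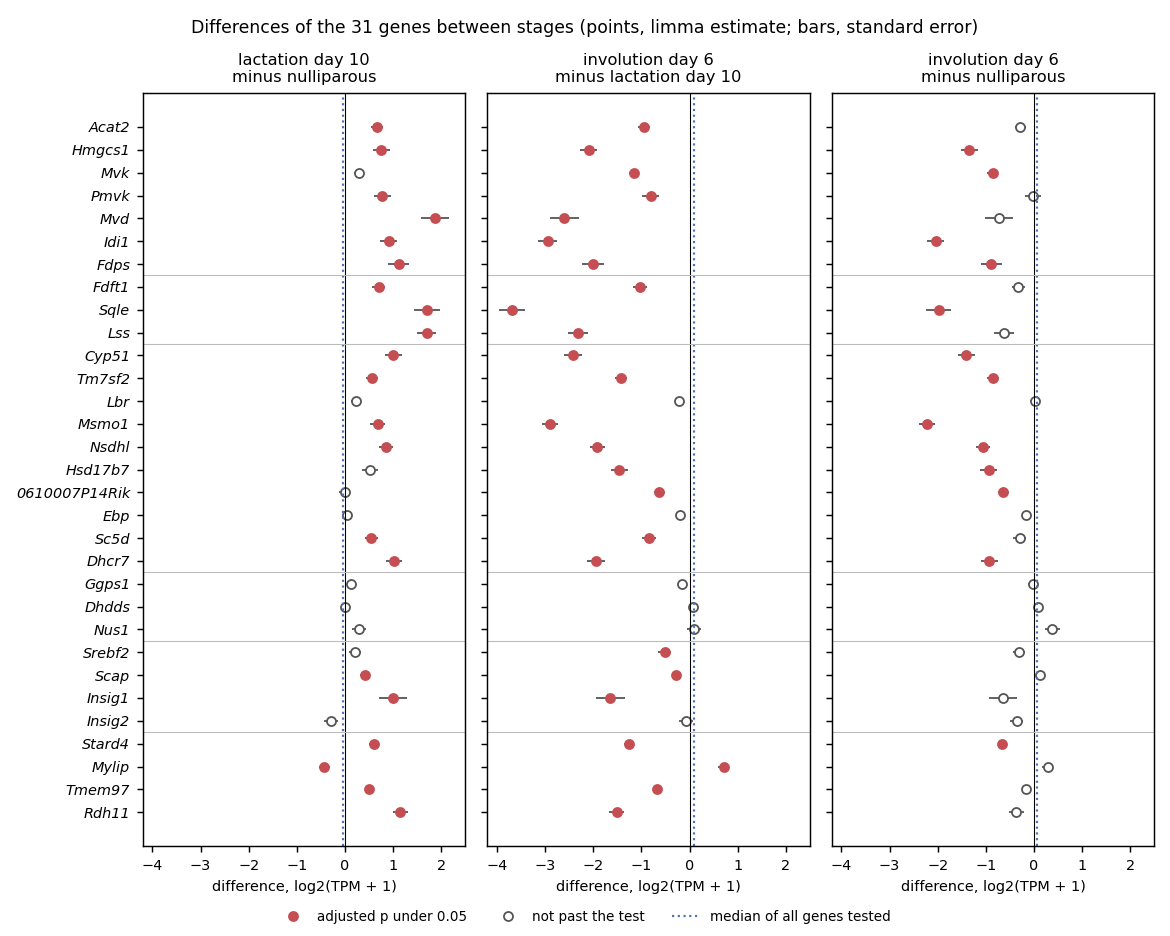
Difference of each of the 31 genes on the log2(TPM + 1) scale (x axis) in 3 comparisons, with bars of 1 standard error, filled points for adjusted p under 0.05 and a dotted line at the median of all genes tested. Horizontal lines divide the genes by role, in the order mevalonate to farnesyl diphosphate, squalene to lanosterol, lanosterol to cholesterol, isoprenoid branches, SREBP2 and its control, and other sterol-responsive genes. The points lie mostly right of 0 in the first panel and left of it in the others, the farthest being Sqle at -3.68.

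RefSeq promoters, 250 bases before to 50 after each gene's start on GRCm38.p6, were at hand for 27 of the 31 genes, with 34 promoters in all. Each was searched on both strands for 4 sets of letters that SREBP2 or its usual partners are known to bind. The sterol response element core, TCACNCCAC, stood in the promoter of 1 gene, Hmgcs1, against 1.24% of all 32851 promoters and 1.2% of the 14168 promoters of genes tested here. The NF-Y letters CCAAT were in 24 of the 34 promoters (70.6%, against 37.4% of all and 37.6% of tested promoters), which belong to 24 of the 27 genes. The Sp1 letters GGGCGG were in 27 promoters (79.4%, against 35.7% of all and 58.2% of tested promoters) and the E-box CACGTG in 8 (23.5%, against 7.15% and 9.47%), and matches of different motifs may share letters. These are matches of letters, not sites shown to be bound.

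Promoters are printed for 4 genes of the route that fell 2-fold at ID6 against both other stages, and for Mylip, which moved the other way. Hmgcs1 was taken because it alone held the core. The others were chosen after the search was seen. Among genes with a promoter at hand, Cyp51, Msmo1 and Idi1 come next by the number of 2-fold calls and by adjusted p in ID6 against LAC. Sqle, which comes before Cyp51 in that order, had no promoter at hand. Capitals mark the sterol response element core and the NF-Y letters, written CCAAT or, where they lie on the other strand, ATTGG. The windows are chr13:119690101-119690400 (plus strand) for Hmgcs1, chr5:4104648-4104947 (minus strand) for Cyp51, chr8:64733529-64733828 (minus strand) for Msmo1, chr13:8885356-8885655 (plus strand) for Idi1 and chr13:45389492-45389791 (plus strand) for Mylip. The core of Hmgcs1 begins 137 bases before the start, between 2 ATTGG runs.
Hmgcs1: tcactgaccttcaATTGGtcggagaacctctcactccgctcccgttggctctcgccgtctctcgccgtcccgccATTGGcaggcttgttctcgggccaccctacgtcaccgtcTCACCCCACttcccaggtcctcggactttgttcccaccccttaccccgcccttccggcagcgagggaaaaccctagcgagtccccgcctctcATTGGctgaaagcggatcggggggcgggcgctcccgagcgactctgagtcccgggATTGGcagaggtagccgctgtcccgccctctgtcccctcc
Cyp51: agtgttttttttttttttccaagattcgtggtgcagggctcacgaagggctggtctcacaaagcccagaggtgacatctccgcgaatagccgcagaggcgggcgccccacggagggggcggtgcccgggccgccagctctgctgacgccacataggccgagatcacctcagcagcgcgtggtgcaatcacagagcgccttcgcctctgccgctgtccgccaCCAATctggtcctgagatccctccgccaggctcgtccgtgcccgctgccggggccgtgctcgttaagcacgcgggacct
Msmo1: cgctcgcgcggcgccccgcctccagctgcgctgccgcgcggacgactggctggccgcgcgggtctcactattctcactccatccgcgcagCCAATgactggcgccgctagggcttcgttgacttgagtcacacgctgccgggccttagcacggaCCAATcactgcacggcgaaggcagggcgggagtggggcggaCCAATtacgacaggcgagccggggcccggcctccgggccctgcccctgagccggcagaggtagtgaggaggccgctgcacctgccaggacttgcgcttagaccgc
Idi1: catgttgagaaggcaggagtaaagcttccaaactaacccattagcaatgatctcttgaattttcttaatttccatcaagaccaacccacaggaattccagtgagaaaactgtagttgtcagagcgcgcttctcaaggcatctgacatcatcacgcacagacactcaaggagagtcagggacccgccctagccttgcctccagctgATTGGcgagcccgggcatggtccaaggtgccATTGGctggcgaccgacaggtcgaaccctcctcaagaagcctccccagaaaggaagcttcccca
Mylip: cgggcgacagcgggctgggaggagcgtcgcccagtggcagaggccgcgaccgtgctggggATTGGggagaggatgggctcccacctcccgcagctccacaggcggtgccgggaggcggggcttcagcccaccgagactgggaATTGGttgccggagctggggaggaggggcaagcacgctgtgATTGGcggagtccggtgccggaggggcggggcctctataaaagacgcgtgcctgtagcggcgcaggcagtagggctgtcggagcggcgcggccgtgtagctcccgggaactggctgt
Hmgcs1 has 4 NF-Y matches, Msmo1 and Mylip 3 each, Idi1 2 and Cyp51 1. Whether these matches bear on the direction of change was not tested.

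In the first arm of the route, from acetyl-CoA to farnesyl diphosphate, 6 of 7 enzymes rose in lactation and 7 of 7 fell from LAC to ID6, with a median log2 difference of 0.78 and -2.01. Hmgcs1, which joins acetyl groups into HMG-CoA and whose promoter is printed above, ranged from 82.9 to 189 TPM in NUL mice (median 124), from 149 to 261 in LAC mice (median 236) and from 41.9 to 56.2 in ID6 mice (median 49.2). No ID6 mouse reached any mouse of the other stages, while NUL and LAC overlapped. Hmgcs1 was 1.67-fold higher in LAC than in NUL mice (log2 difference 0.75, SE 0.17, adjusted p = 0.00965) and 4.43-fold lower in ID6 than in LAC mice (log2 difference -2.10, SE 0.18, adjusted p = 7.66e-07). Against NUL mice it was 2.66-fold lower at ID6 (log2 difference -1.34, SE 0.17, adjusted p = 0.000355).

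Mvk, mevalonate kinase, ranged from 21.7 to 34.6 TPM in NUL mice (median 25.8), from 25.9 to 37.01 in LAC mice (median 33.8) and from 11.2 to 17.4 in ID6 mice (median 13.9). The ID6 mice stood apart below, and NUL and LAC overlapped widely. It fell 2.31-fold from LAC to ID6 (log2 difference -1.15, SE 0.11, adjusted p = 1.77e-06) and was 1.88-fold lower at ID6 than in NUL (log2 difference -0.86, SE 0.11, adjusted p = 0.000254). In LAC against NUL mice it did not pass (0.29, adjusted p = 0.0991), but did without NUL_227 (adjusted p = 0.0322) or without LAC_133 (adjusted p = 0.0490).

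Mvd, the decarboxylase that yields isopentenyl diphosphate, ranged from 5.18 to 28.7 TPM in NUL mice (median 18.7), from 35.7 to 94.5 in LAC mice (median 54.98) and from 6.22 to 11.8 in ID6 mice (median 8.31). Its LAC mice were above all others, and the widely scattered NUL mice overlapped with ID6. It rose 3.57-fold in lactation (log2 difference 1.87, SE 0.29, adjusted p = 0.000535), the steepest rise of the 31 genes, and fell 6.85-fold from LAC to ID6 (log2 difference -2.60, SE 0.31, adjusted p = 1.25e-05). Between ID6 and NUL it did not pass (-0.73, adjusted p = 0.140), while among mice numbered 200 and above it fell (-1.17, adjusted p = 0.0144).

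Idi1, the isomerase that makes dimethylallyl diphosphate, ranged from 38.2 to 80.5 TPM in NUL mice (median 52.2), from 75.1 to 123 in LAC mice (median 103) and from 9.05 to 20.1 in ID6 mice (median 12.2). Every ID6 mouse was below every other mouse, although ID6_230 stood above the rest of its stage. It was 1.85-fold higher in LAC than in NUL mice (log2 difference 0.90, SE 0.18, adjusted p = 0.00383), 8.09-fold lower in ID6 than in LAC mice (log2 difference -2.95, SE 0.19, adjusted p = 2.13e-08), and 4.37-fold lower in ID6 than in NUL mice (log2 difference -2.04, SE 0.18, adjusted p = 6.20e-06). Fdps, farnesyl diphosphate synthase, was the most abundant enzyme of the arm in lactation and ranged from 117 to 325 TPM in NUL mice (median 199), from 316 to 568 in LAC mice (median 484) and from 76.1 to 177 in ID6 mice (median 111). The NUL mice overlapped with both other stages, by a narrow margin on the LAC side. It rose 2.12-fold in lactation (log2 difference 1.12, SE 0.22, adjusted p = 0.00316) and fell 3.97-fold from LAC to ID6 (log2 difference -2.01, SE 0.23, adjusted p = 8.06e-06). Its fall against NUL (log2 difference -0.89, SE 0.22, adjusted p = 0.0301) was lost when any of 5 mice was left out (NUL_1, NUL_13, ID6_201, ID6_209 or ID6_232), at adjusted p from 0.0558 to 0.0693.

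The other enzymes of this arm changed by less than 2-fold. Acat2, the cytosolic thiolase of the first step, had means of 49.8 ± 5.19, 80.8 ± 17.4 and 40.7 ± 4.72 TPM (SD) in NUL, LAC and ID6 mice. It rose in lactation (adjusted p = 0.00140) and fell after it (adjusted p = 2.68e-05). Pmvk, phosphomevalonate kinase, averaged 70.9 ± 13.3, 123 ± 28.1 and 70.1 ± 16.1 TPM, and its ID6 mean lay close to its NUL mean (log2 difference -0.03, SE 0.17, adjusted p = 0.939).

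All 3 enzymes from farnesyl diphosphate to lanosterol rose in lactation and fell after it. Fdft1, squalene synthase, ranged from 32.3 to 63.9 TPM in NUL mice (median 43.4), from 52.2 to 89.7 in LAC mice (median 74.4) and from 33.2 to 39.2 in ID6 mice (median 35.1). The ID6 mice fell wholly below the LAC mice and inside the NUL range. It was 1.63-fold higher in LAC than in NUL mice (log2 difference 0.70, SE 0.13, adjusted p = 0.00267) and 2.09-fold lower in ID6 than in LAC mice (log2 difference -1.03, SE 0.14, adjusted p = 4.53e-05), and did not pass in ID6 against NUL (log2 difference -0.32, SE 0.13, adjusted p = 0.147). Sqle, squalene epoxidase, a known control point of the late route, ranged from 8.10 to 40.8 TPM in NUL mice (median 22.1), from 46.01 to 77.5 in LAC mice (median 62.2) and from 2.58 to 5.91 in ID6 mice (median 3.42). No 2 stages overlapped. Its fall from LAC to ID6, 15.5-fold, was the steepest of the 31 genes (log2 difference -3.68, SE 0.28, adjusted p = 2.31e-07). It had risen 3.08-fold in lactation (log2 difference 1.70, SE 0.27, adjusted p = 0.000501), and at ID6 it was 5.05-fold below NUL (log2 difference -1.98, SE 0.27, adjusted p = 0.000566).

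Lss, lanosterol synthase, which closes the sterol rings, ranged from 10.6 to 24.2 TPM in NUL mice (median 17.4), from 34.7 to 83.4 in LAC mice (median 60.1) and from 8.53 to 17.6 in ID6 mice (median 10.2). The LAC mice stood above all others, and NUL and ID6 overlapped, with ID6_218 far above the rest of its stage. It rose 3.41-fold (log2 difference 1.69, SE 0.20, adjusted p = 6.16e-05) and fell 5.40-fold from LAC to ID6 (log2 difference -2.32, SE 0.21, adjusted p = 9.62e-07). Against NUL it did not pass at ID6 (-0.62, adjusted p = 0.0792), and without ID6_218 it did (-0.75, adjusted p = 0.0437).

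Of the 10 genes from lanosterol to cholesterol, 6 rose in lactation and 8 fell after it, of which 7 were also below NUL at ID6. Cyp51, the cytochrome that demethylates lanosterol, ranged from 21.5 to 63.95 TPM in NUL mice (median 37.4), from 58.5 to 83.4 in LAC mice (median 76.5) and from 10.3 to 16.7 in ID6 mice (median 12.6). NUL and LAC overlapped through a single NUL mouse, and ID6 lay below both. Cyp51 rose 1.95-fold (log2 difference 1.0, SE 0.18, adjusted p = 0.00154), fell 5.65-fold from LAC to ID6 (log2 difference -2.41, SE 0.19, adjusted p = 2.82e-07), and was 2.90-fold under NUL at ID6 (log2 difference -1.41, SE 0.18, adjusted p = 0.000326). It was the only gene besides Sqle with a 2-fold call in all 3 comparisons.

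Tm7sf2 and Lbr both encode sterol reductases that act after Cyp51, Lbr being also a protein of the inner nuclear membrane. Tm7sf2 ranged from 121 to 175 TPM in NUL mice (median 160.3), from 202 to 235 in LAC mice (median 230.1) and from 56.3 to 119.7 in ID6 mice (median 85.6). Its 3 stages did not overlap, and LAC_133 lay below the other LAC mice. It rose 1.48-fold (log2 difference 0.57, SE 0.12, adjusted p = 0.00633), fell 2.65-fold from LAC to ID6 (log2 difference -1.43, SE 0.13, adjusted p = 9.17e-07) and was 1.79-fold under NUL at ID6 (log2 difference -0.86, SE 0.12, adjusted p = 0.000973). Lbr averaged 3.90 ± 0.660, 4.70 ± 0.539 and 3.92 ± 0.418 TPM and passed in no comparison, the smallest adjusted p being 0.121 in ID6 against LAC. After median-ratio scaling of the mice Lbr passed there (-0.33, adjusted p = 0.00979).

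Msmo1, the methylsterol oxidase, ranged from 36.03 to 75.1 TPM in NUL mice (median 53.96), from 72 to 117 in LAC mice (median 84) and from 8.60 to 14.5 in ID6 mice (median 10.9). The ID6 mice stood far below both other stages, which overlapped by a small margin. Its fall from LAC to ID6 was 8.09-fold (log2 difference -2.90, SE 0.17, adjusted p = 5.53e-09) and from NUL to ID6 5.08-fold (log2 difference -2.22, SE 0.16, adjusted p = 3.17e-07), while the rise in lactation was 1.59-fold (log2 difference 0.68, SE 0.16, adjusted p = 0.0112). Nsdhl, the dehydrogenase of the same demethylation, ranged from 21.5 to 37.9 TPM in NUL mice (median 29.5), from 41.8 to 61.5 in LAC mice (median 56.4) and from 9.81 to 20.4 in ID6 mice (median 13.7). Its stages were all separate. It rose 1.82-fold (log2 difference 0.85, SE 0.15, adjusted p = 0.00121), fell 3.90-fold from LAC to ID6 (log2 difference -1.92, SE 0.15, adjusted p = 3.40e-07) and was 2.14-fold under NUL (log2 difference -1.06, SE 0.15, adjusted p = 0.000781).

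Hsd17b7, the ketoreductase that ends the demethylation, ranged from 8.28 to 19.9 TPM in NUL mice (median 12.3), from 14.2 to 23.8 in LAC mice (median 17.96) and from 4.50 to 7.43 in ID6 mice (median 6.20). ID6 mice were below all others, and NUL and LAC overlapped widely. It fell 3.05-fold from LAC to ID6 (log2 difference -1.46, SE 0.18, adjusted p = 1.77e-05) and 2.12-fold from NUL (log2 difference -0.94, SE 0.17, adjusted p = 0.00685). In LAC against NUL mice it did not pass (0.52, adjusted p = 0.0662), but did without NUL_227 (adjusted p = 0.0202). 0610007P14Rik, also called Erg28, which is thought to tether the demethylation enzymes together, averaged 69.7 ± 8.83, 69.4 ± 9.67 and 44.6 ± 7.67 TPM. It was lower at ID6 than in LAC (adjusted p = 0.000601) and NUL mice (adjusted p = 0.00468), and did not pass in LAC against NUL (log2 difference -0.01, SE 0.11, adjusted p = 0.980).

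Dhcr7, the reductase of the last step, ranged from 30.4 to 60.5 TPM in NUL mice (median 45.2), from 64.6 to 114 in LAC mice (median 89.1) and from 16.9 to 29.9 in ID6 mice (median 21.1). Its stages did not overlap. It rose 2.02-fold (log2 difference 1.01, SE 0.17, adjusted p = 0.00106), fell 3.92-fold from LAC to ID6 (log2 difference -1.94, SE 0.18, adjusted p = 1.14e-06) and was 1.95-fold under NUL (log2 difference -0.93, SE 0.17, adjusted p = 0.00749). The abundant enzymes just before it are Sc5d and Ebp. Sc5d, the sterol desaturase, averaged 190.3 ± 21.01, 282 ± 61.2 and 157 ± 35.04 TPM, a rise (adjusted p = 0.0178) and a fall (adjusted p = 0.000373) of under 2-fold. Ebp, the sterol isomerase, averaged 227.5 ± 22.5, 234 ± 14.4 and 204 ± 15.7 TPM and did not pass in ID6 against LAC (-0.20, adjusted p = 0.0525). It passed there without NUL_220, NUL_4 or ID6_216 (adjusted p from 0.0274 to 0.0494) and after median-ratio scaling (-0.34, adjusted p = 0.00457).

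**Figure D3:**
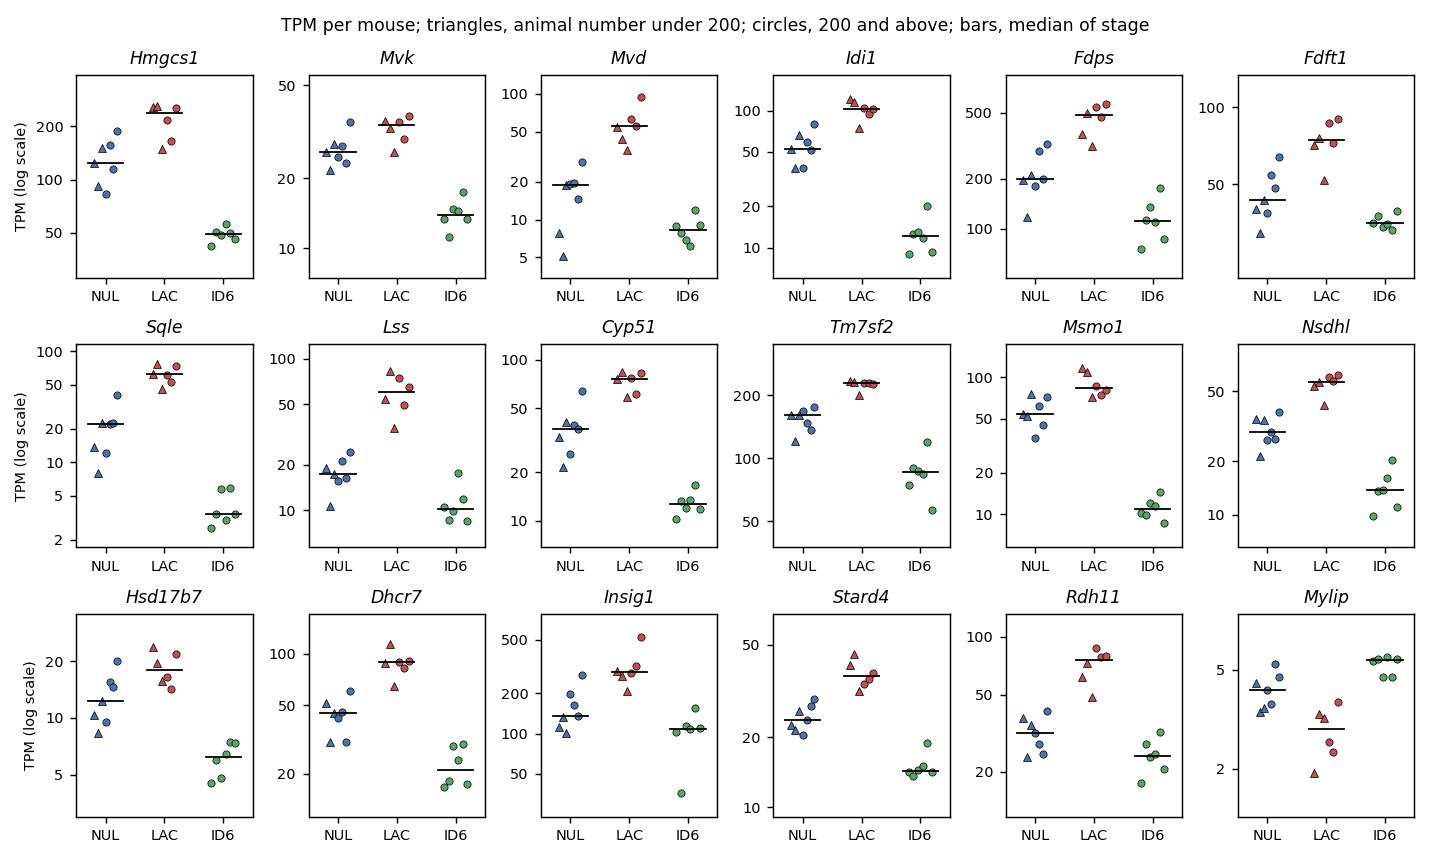
TPM of each mouse (y axis, log scale) by stage for the 17 genes with a 2-fold call in any comparison and for Mylip, with triangles for animal numbers under 200, circles for 200 and above and bars at stage medians. The ID6 points lie below the LAC points in all 17 genes, and above them in Mylip.

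The isoprenoid branches leave the route at farnesyl diphosphate. Their 3 genes passed in no comparison. Ggps1, which makes geranylgeranyl diphosphate for protein prenylation, averaged 3.75 ± 0.544, 4.18 ± 0.447 and 3.66 ± 0.481 TPM. Dhdds and Nus1, the subunits of the enzyme that builds dolichol, averaged 15.6 ± 1.68, 15.7 ± 1.67 and 16.6 ± 2.55 TPM and 14.8 ± 3.80, 18.1 ± 3.80 and 19.1 ± 1.90 TPM. The largest difference among them was that of Nus1 at ID6 against NUL (log2 difference 0.38, SE 0.15, adjusted p = 0.127), which passed without NUL_227 (adjusted p = 0.0444). After median-ratio scaling Ggps1 fell from LAC to ID6 (-0.27, adjusted p = 0.0449).

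RNA for SREBP2 itself changed by less than 2-fold in each comparison. Srebf2 averaged 15.6 ± 3.32, 18.1 ± 3.02 and 12.2 ± 1.58 TPM, did not pass in LAC against NUL (log2 difference 0.21, SE 0.12, adjusted p = 0.343) and fell 1.47-fold from LAC to ID6 (log2 difference -0.52, SE 0.13, adjusted p = 0.00679). Every ID6 mouse was below every LAC mouse for Srebf2. Scap, the escort, averaged 47.9 ± 4.09, 64.3 ± 9.83 and 52.5 ± 4.71 TPM. It rose in lactation (log2 difference 0.41, SE 0.09, adjusted p = 0.00710). Its fall after lactation (log2 difference -0.28, SE 0.09, adjusted p = 0.0381) was lost when any of 8 mice was left out (LAC_36, LAC_102, LAC_200, LAC_240, ID6_201, ID6_209, ID6_218 or ID6_232), at adjusted p from 0.0574 to 0.0990.

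The retention proteins are encoded by Insig1 and Insig2. Insig1, itself a target of SREBP2, ranged from 101 to 272 TPM in NUL mice (median 136), from 206 to 524 in LAC mice (median 289) and from 35.9 to 156 in ID6 mice (median 109). LAC_240 stood far above the other LAC mice, and NUL overlapped with both other stages. It fell 3.03-fold from LAC to ID6 (log2 difference -1.65, SE 0.30, adjusted p = 0.000584) and did not pass in ID6 against NUL (log2 difference -0.65, SE 0.29, adjusted p = 0.170). Its rise in lactation, 1.98-fold (log2 difference 1.0, SE 0.29, adjusted p = 0.0337) and just under the 2-fold line before rounding, was lost when any of 9 mice was left out (NUL_1, NUL_4, NUL_13, NUL_226, LAC_36, LAC_102, LAC_200, LAC_213 or LAC_240), at adjusted p from 0.0501 to 0.0806. Insig2, whose liver transcript is known to be lowered by insulin, averaged 267 ± 51.05, 219 ± 50.7 and 206 ± 28.5 TPM and passed in no comparison.

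Among the other sterol-responsive genes, Stard4, a soluble carrier that moves sterol between membranes, ranged from 20.4 to 29.3 TPM in NUL mice (median 23.8), from 31.8 to 45.5 in LAC mice (median 36.6) and from 13.6 to 18.9 in ID6 mice (median 14.4). No 2 stages overlapped, and ID6_230 stood above the other ID6 mice. It rose 1.54-fold (log2 difference 0.60, SE 0.10, adjusted p = 0.000598), fell 2.49-fold from LAC to ID6 (log2 difference -1.26, SE 0.10, adjusted p = 3.40e-07) and was 1.62-fold under NUL (log2 difference -0.66, SE 0.10, adjusted p = 0.00103). Rdh11, a retinol dehydrogenase that responds to SREBP, ranged from 23.9 to 41.04 TPM in NUL mice (median 31.6), from 48.6 to 87.99 in LAC mice (median 75.97) and from 17.5 to 32.1 in ID6 mice (median 24.2). The LAC mice stood apart above the others. It rose 2.25-fold (log2 difference 1.15, SE 0.16, adjusted p = 0.000170) and fell 2.93-fold (log2 difference -1.51, SE 0.16, adjusted p = 5.95e-06), and did not pass in ID6 against NUL (log2 difference -0.37, SE 0.16, adjusted p = 0.158). Tmem97, a membrane protein that binds sterols, averaged 72.8 ± 6.91, 104 ± 13.2 and 64.7 ± 4.60 TPM, a rise (adjusted p = 0.000610) and a fall (adjusted p = 2.10e-05) of under 2-fold.

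Mylip, a ubiquitin ligase that lowers uptake of lipoprotein cholesterol and is induced by the oxysterol receptor LXR, ran the opposite way. It ranged from 3.39 to 5.25 TPM in NUL mice (median 4.14), from 1.92 to 3.69 in LAC mice (median 2.88) and from 4.65 to 5.60 in ID6 mice (median 5.46). Every ID6 mouse was above every LAC mouse, and NUL overlapped with both. It fell in lactation (log2 difference -0.43, SE 0.11, adjusted p = 0.0181) and rose 1.84-fold from LAC to ID6 (log2 difference 0.71, SE 0.11, adjusted p = 0.000198). With only the NUL and LAC mice in the fit, the fall in lactation did not pass (adjusted p = 0.0555).

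The lactation difference was also taken within each range of animal numbers. The ID6 mice are all numbered 200 or above, so the lower-numbered mice were also left out to compare all stages within 1 range. With mice numbered 200 and above alone, 14 of the 31 genes rose in LAC against NUL and 1 fell (2.65% of all 16062 genes tested rose), 24 fell and 1 rose in ID6 against LAC (3.58% fell), and 14 fell in ID6 against NUL (0.324% fell). The 14 hold all 13 from the full fit and Mvd. Hmgcs1, Idi1, Tm7sf2, Msmo1, Sc5d and Insig1 no longer passed in LAC against NUL, where 3 mice face 4, at log2 differences between 0.49 (Sc5d) and 0.96 (Insig1). A test of whether the lactation difference itself differed between the ranges called 0 of the 31 genes in limma-trend (0.111% of 16179 genes), with 1 gene, Acat2, at an unadjusted p under 0.05. Its log2 difference was 0.38 under 200 and 0.94 at 200 and above (unadjusted p = 0.00736, adjusted p = 0.225).

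**Figure D4:**
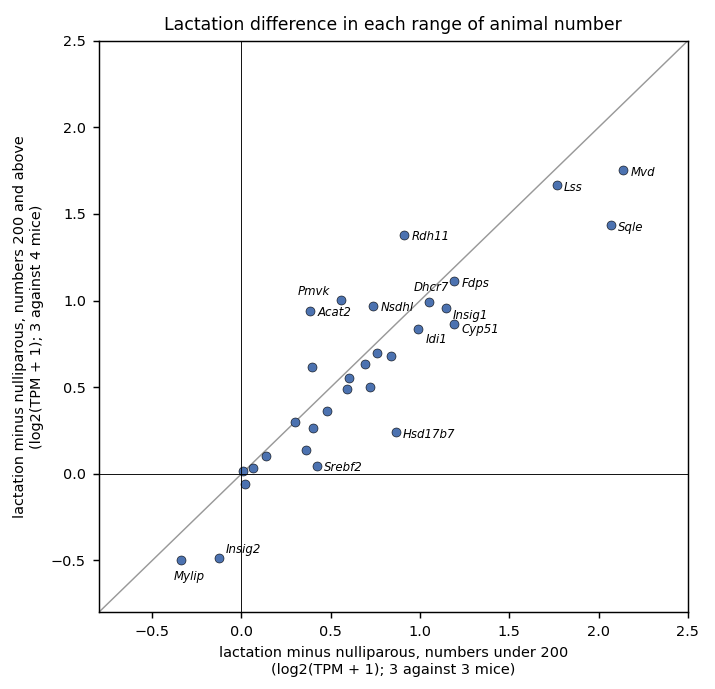
LAC minus NUL difference of the 31 genes, log2(TPM + 1), in mice numbered under 200 (x axis) and in mice numbered 200 and above (y axis), with a line where both are equal and names on the genes farthest out. Acat2 lies at 0.38 and 0.94, and Hsd17b7 on the other side of the line at 0.86 and 0.24.

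Lists of genes around the pathway were read in the same fit, by their counts and medians. Of all genes tested, 2.72% rose and 6.49% fell in LAC against NUL. From LAC to ID6 18.1% rose and 4.73% fell, and in ID6 against NUL 3.44% rose and 0.912% fell. After median-ratio scaling 8.82% of all genes rose from LAC to ID6, and the lists were not counted again under that scaling. Fatty acid synthesis and SREBP1c, the lipogenic counterpart of SREBP2, had 11 of 18 genes rise in lactation (median 0.92), and 9 fall and 1 rise from LAC to ID6 (median -0.60). Fasn, fatty acid synthase, averaged 66.4, 244 and 71.3 TPM, and Thrsp 122, 443 and 90.8 TPM. Against NUL, 2 of 18 genes were higher at ID6 (median 0.08), and no test was made between the lists. The 2 were Srebf1, which encodes SREBP1, at 106, 146 and 269.6 TPM (1.51, adjusted p = 0.00865), and Scd1, the desaturase, at 696, 2670.2 and 1632 TPM (1.15, adjusted p = 0.0397).

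Beside the counts that follow, 2.72% of all genes rose and 6.49% fell in LAC against NUL. From LAC to ID6 18.1% rose and 4.73% fell, and in ID6 against NUL 3.44% rose. LXR senses oxysterols and drives cholesterol out of cells. Of its 10 listed genes 1 rose and 2 fell in lactation (median -0.23), 7 rose and 2 fell from LAC to ID6 (median 0.38), and 3 rose in ID6 against NUL (median 0.34). The 3 were the transporters Abcg5, at 53.6, 44.01 and 86.3 TPM, Abcg8, at 43.2, 30.5 and 62.05 TPM, and Abcg1, at 1.95, 1.41 and 3.23 TPM. Abcg5 and Abcg8 form the pump that sends cholesterol into bile. Pltp, the phospholipid transfer protein, was the 1 that rose in lactation, and averaged 16.8, 55.8 and 20.9 TPM.

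For the next lists the same shares apply, 2.72% of all genes rising and 6.49% falling in LAC against NUL. They were 18.1% rising and 4.73% falling from LAC to ID6, and 3.44% rising and 0.912% falling in ID6 against NUL. Of 14 genes of cholesterol trafficking and esterification, 1 fell in lactation, 7 rose and 1 fell from LAC to ID6, and 2 rose in ID6 against NUL. Soat2, which makes cholesteryl esters in hepatocytes, averaged 24, 17.2 and 29.5 TPM, and Soat1 1.64, 1.30 and 3.08 TPM. Of 18 tested genes for SREBP cleavage, transport and degradation, 2 rose in lactation, 3 rose and 3 fell from LAC to ID6, and 2 rose against NUL. Among them were Mbtps1, a protease that cuts SREBPs, at 18.97, 19.2 and 23.7 TPM, and Rnf145, a ligase of the same pathway, at 12.04, 13.99 and 21.1 TPM. Of 17 genes that use isoprenoids for prenylation, ubiquinone and dolichol, 1 fell in lactation, 4 rose and 3 fell from LAC to ID6, and 1 fell against NUL, Coq3, an enzyme of ubiquinone synthesis, at 11.6, 9.45 and 7.79 TPM. The rises from LAC to ID6 in 3 of 18 and 4 of 17 genes were near the share over all genes. The falls, 3 in each list, were above it, and the lists were not tested as sets. In these last lists the medians stayed between -0.05 and 0.22 in all 3 comparisons.

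**Figure D5:**
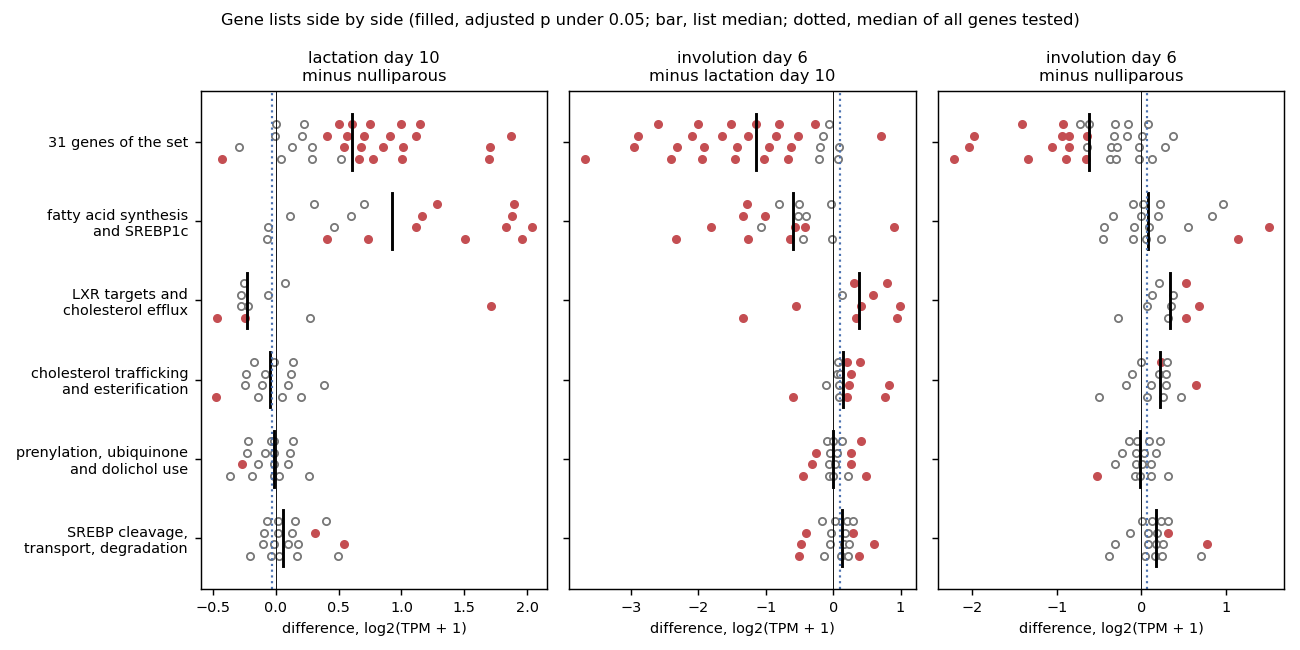
Difference of each gene, log2(TPM + 1), on the x axis (each panel with its own scale) for the 31 genes and 5 lists around them (y axis), with filled points for adjusted p under 0.05, a bar at each list's median and a dotted line at the median of all genes tested. At ID6 against NUL the bar of the 31 genes lies at -0.62 and that of fatty acid synthesis at 0.08.

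Markers of other liver cells moved with the stages too. The shares over all genes were 2.72% rising and 6.49% falling in LAC against NUL. They were 18.1% rising and 4.73% falling from LAC to ID6, and 3.44% rising and 0.912% falling in ID6 against NUL. Of 8 Kupffer cell and macrophage markers, 7 fell in lactation, and 8 rose from LAC to ID6 and 8 from NUL to ID6. Their sums ranged from 167 to 317 TPM in NUL, 110 to 228 TPM in LAC and 372 to 518 TPM in ID6 mice, so that ID6 did not overlap with either. Of 7 tested leukocyte markers, 1 fell in lactation, 6 rose from LAC to ID6 and 2 rose against NUL. Of 8 sinusoidal endothelial markers, 3 fell in lactation and 5 rose after it, and of 8 stellate cell markers, 4 fell and 3 rose. Of 5 cholangiocyte markers, 1 fell and 1 rose in these comparisons. Of 5 erythroid markers, 0 passed in LAC against NUL (0 also at an unadjusted p under 0.05) and 5 fell at ID6 against each other stage in limma-trend, the sums being 1144 to 2408 TPM in NUL, 1331 to 3336 TPM in LAC and 197 to 847 TPM in ID6 mice. Of 5 adipocyte and 4 pancreatic acinar markers, 0 passed in limma-trend, with 1 adipocyte marker, Adipoq in ID6 against LAC, at an unadjusted p under 0.05. Of 8 hepatocyte markers, 1 rose in lactation, Alb, while 3 had negative differences there. From LAC to ID6 1 fell, Alb, and 1 rose, Ttr. In ID6 against NUL 0 passed in limma-trend, with 2 at an unadjusted p under 0.05. No listed marker was at 0 in every mouse. The part of these changes in the fall of the cholesterol genes was not tested.

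Cholesterol synthesis follows the hour and feeding, and the hour of collection is not given in the sources used here. Over all genes, 2.72% rose in lactation, 18.1% rose and 4.73% fell from LAC to ID6, and 3.44% rose in ID6 against NUL. Of 15 tested clock and clock output genes, 1 rose in lactation, Per3, at 0.491, 0.980 and 0.400 TPM. From LAC to ID6, 3 rose and 1 fell, and 1 rose against NUL, Nfil3, at 25.9, 25.6 and 38.1 TPM. Their part in the result was not tested.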

How the data were processed

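Poly(A) RNA from the livers of 19 mice was sequenced with paired reads of 150 bases. The authors aligned the reads to mm10 (GRCm38), quantified genes with RSEM 1.3.1, and deposited TPM per gene and mouse for 51826 gene entries, with 2 decimals. The aligner is not given in the sources used here. RSEM divides reads that fit several genes, so near-identical paralogs are uncertain. TPM do not show depth, so only the spread between mice gives the precision of each value, and since TPM are shares, a rise of abundant genes lowers the others. The DESeq2 test of the study needs counts and was not repeated. Of 171 pairs of mice, 0 had identical values.

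From the TPM, log2(TPM + 1) was fitted with limma-trend (limma 3.58.1, R 4.3.3), with 1 mean per stage over all 19 mice and a minimum mean of 0.1 TPM per gene, and p-values were adjusted by Benjamini-Hochberg over all 16230 genes tested. On simulated data for LAC against NUL, with 200 of 16230 genes changed by 1.5 on the log2 scale, 192 of the changed and 13 of the other genes were called. The changed genes were drawn from those with a mean log2(TPM + 1) above 1, and the simulated noise was normal. The median difference of the 31 genes in LAC against NUL was 0.60. The simulation does not show how often changes of that size, or changes of low genes, are called. The thresholds, adjusted p under 0.05 and a log2 difference of at least 1, are those the study names. The genes and all lists were chosen with earlier results of these data known. All 31 genes are named. The 17 with a 2-fold call are given in full, and of each other list the counts, the median and up to 3 genes with the smallest adjusted p were open to naming. Motif searches and summaries used Python 3.11.15 with pandas 2.3.3 and numpy 2.4.6. The fit was repeated with a pseudocount of 0.1 or 0.5, with a higher minimum (1 TPM) or no minimum, on the compared stages alone, after scaling by median ratios or by quantiles, with robust moderation, with a term for the range of animal numbers, without the mice numbered under 200, and leaving out 1 mouse at a time. The deposited table gives no group beyond the stage and number in each mouse's name. Replicates are single mice.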

Additional observations from a re-analysis of the deposited data

Results flagged for a closer look

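In 7 of 93 groups of mice (31 genes in 3 stages) 1 mouse lay far from the others by Dixon's criterion, which chance alone meets in about 1 of 20 groups. ID6_230 was the highest of its stage for Idi1, at 20.07 TPM with the next mouse at 13.01, and for Stard4, at 18.9 TPM with the next at 15.0. ID6_218 was the highest for Lss, at 17.64 TPM against 11.9. LAC_240 was the highest for Insig1, at 524.32 TPM against 319. At the low end, LAC_133 had 201.7 TPM of Tm7sf2 with the next mouse at 228, LAC_200 had 3.3 TPM of Ggps1 with the next at 4.21, and LAC_36 had 12.51 TPM of Dhdds with the next at 15.7. Leaving each of these mice out changed the call of Insig1 in LAC against NUL (without LAC_240, 0.84, adjusted p = 0.0806 in limma-trend) and of Lss in ID6 against NUL (without ID6_218, -0.75, adjusted p = 0.0437), and no other call of those genes.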

How the results depend on the processing

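No paired analysis was possible because replicates are animal numbers and no number is shared between stages. Of the counts of genes past each rule, 1 moved by more than 1.5 times, the 7 genes 2-fold higher in LAC than NUL, which were 4 without NUL replicate 4. With each mouse left out in turn, the counts past the test ranged from 20 to 23 (LAC against NUL), 24 to 26 (ID6 against LAC) and 12 to 14 (ID6 against NUL), the 2-fold counts from 4 to 9, 16 to 18 and 5 to 9, and the count differing between number ranges stayed at 0. Over 930 single-gene results under the other alternatives, 896 kept their side of the threshold, 12 lost it, 22 passed newly and 0 called differences reversed, and over 1767 results with 1 mouse left out the counts were 1737, 22, 8 and 0. Differences past the threshold in neither setting changed sign in 19 and 27 of these. With no filter on low values, or with only the 2 groups compared, Scap in ID6 against LAC and Fdps in ID6 against NUL lost their calls. Each of these settings also lost 1 call in LAC against NUL, that of Mylip where only the 2 groups were compared. Srebf2 in ID6 against NUL passed after median-ratio scaling (-0.41) and quantile normalization (-0.42). The cause of these shifts was not tested.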
